A study of Mus musculus with 12 samples.

Results

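This account follows 2403 of 94161 accessible chromatin regions (2.55%) that were strongly open in wild-type marginal zone B cells of the mouse spleen and weakly open in wild-type follicular B cells. The regions were chosen by their measured wild-type levels: a region was taken when its mean over the 3 wild-type marginal zone libraries was at least 5 rppm and at least 4 times its mean over the 3 wild-type follicular libraries. The unit rppm is the number of reads in a region per 1000000 reads over all listed regions of the same library. The assay was ATAC-seq on 10000 sorted cells per library; it reads open DNA through the places where a transposase can insert adapters. Marginal zone B cells (MZB) were sorted as CD23- CD21hi CD1d+ and follicular B cells (FoB) as CD23+ CD21mid CD1d-; both gates took B220+ cells negative for GL7, CD93, CD11b, F4/80 and Thy1.1. The 4 groups of 3 libraries were MZB labelled knockout for LSD1, FoB labelled knockout for LSD1, MZB labelled wild type and FoB labelled wild type, all from female C57BL/6J mice without stimulation. The age of the mice, the cells in which the gene was deleted, the Cre line if any, and whether libraries came from separate animals were not given in the sources used here. The p-values below therefore measure spread between libraries, which may be technical.

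MZB cells line the border between the white pulp of the spleen and the blood sinus, and respond early to blood-borne antigens. Their development depends on the receptor Notch2, and their position on receptors for the lipid sphingosine-1-phosphate and on integrins. FoB cells recirculate through the follicles and take part in T cell-dependent responses. Regions that are open in a single cell type often lie away from promoters, at enhancers, which can act on genes over long distances. LSD1, encoded by Kdm1a, takes methyl groups off lysines of histone H3 and works in repressor complexes with CoREST proteins.

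The regions lay mostly away from gene starts. Of the 2278 on chromosomes with listed start sites, 87 (3.82%) were within 1000 bp of a start site of a coding gene, against 13.7% of all 90916 regions there and 23.6% of the 42389 regions at 5 rppm or more in wild-type MZB. A further 53.6% lay over 10 kb and up to 100 kb from a start site, and 30.4% lay over 100 kb away, against 24.8% of all regions. The share inside a coding gene body was 58.1%, against 57.3% of all regions and 66.0% of the regions at 5 rppm or more in wild-type MZB. Their median width was 448 bp, against 339 bp for all regions and 515 bp for the regions at 5 rppm or more in wild-type MZB. The start sites cover 17492 of 21900 coding genes, so some distances to the true nearest start are shorter. No genome sequence was used here, so exons, introns and UTRs within gene bodies were not told apart.

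**Figure D1:**
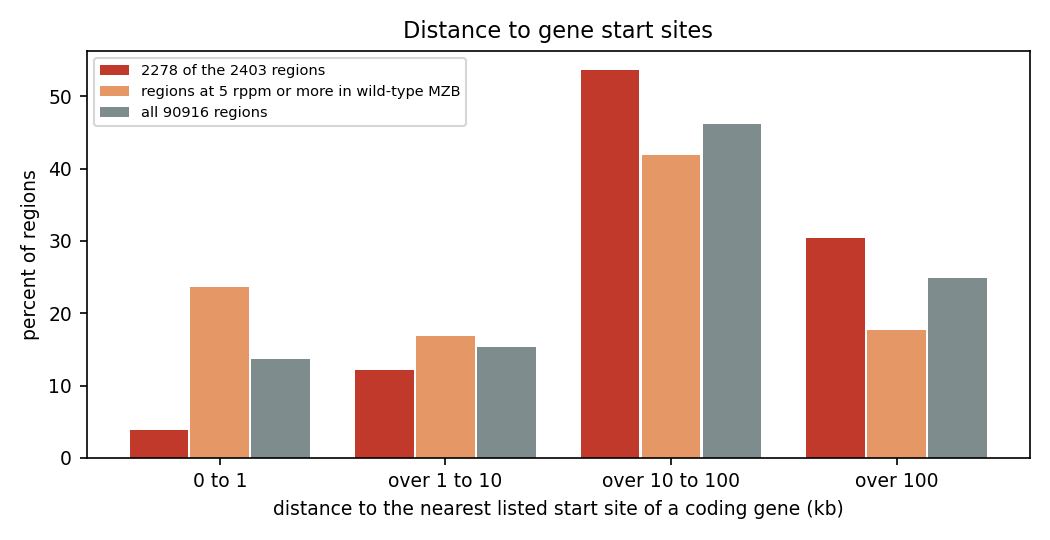
Distance from each region to the nearest listed start site of a coding gene, in kb on the x axis, with the percent of regions on the y axis. Of the 2278 regions placed (left bars), 3.82% lay within 1000 bp of a start site, against 23.6% of regions at 5 rppm or more in wild-type MZB and 13.7% of all regions.

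Only 52 of these regions (2.28%) overlapped the window from 250 bp before to 50 bp after a listed gene start, against 9.89% of all regions. Windows of 4 genes, chosen after their values were seen, are shown as examples of gene starts that a region of the set overlaps. They are Tspan15, a tetraspanin, whose region had the highest wild-type MZB level of the 52; Gpr31b, a G protein-coupled receptor; Cdc42bpb, a kinase that acts below the GTPase Cdc42; and Ackr3, an atypical receptor for the chemokine CXCL12 that stands again among the genes with several regions. The sequences are from RefSeq on GRCm38.p6, 5′ to 3′ on the strand of the gene, and capitals mark the letters TGACTCA (AP-1), CACCTG (E-box) or GAGGAA (PU.1) on either strand.
Tspan15, chr10:62231169-62231468, minus strand: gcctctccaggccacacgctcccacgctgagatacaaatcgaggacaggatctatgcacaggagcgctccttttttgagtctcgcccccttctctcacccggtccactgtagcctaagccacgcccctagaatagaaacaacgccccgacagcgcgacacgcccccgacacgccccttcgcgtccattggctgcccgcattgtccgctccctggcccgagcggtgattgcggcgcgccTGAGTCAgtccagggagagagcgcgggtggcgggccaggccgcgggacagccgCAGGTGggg
Gpr31b, chr17:13052231-13052530, minus strand: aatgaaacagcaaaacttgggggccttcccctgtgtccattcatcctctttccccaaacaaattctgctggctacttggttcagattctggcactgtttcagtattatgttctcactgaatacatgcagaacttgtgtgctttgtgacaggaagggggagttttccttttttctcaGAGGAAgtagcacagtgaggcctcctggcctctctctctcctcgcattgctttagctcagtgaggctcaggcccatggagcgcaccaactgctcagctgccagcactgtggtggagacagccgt
Cdc42bpb, chr12:111377669-111377968, minus strand: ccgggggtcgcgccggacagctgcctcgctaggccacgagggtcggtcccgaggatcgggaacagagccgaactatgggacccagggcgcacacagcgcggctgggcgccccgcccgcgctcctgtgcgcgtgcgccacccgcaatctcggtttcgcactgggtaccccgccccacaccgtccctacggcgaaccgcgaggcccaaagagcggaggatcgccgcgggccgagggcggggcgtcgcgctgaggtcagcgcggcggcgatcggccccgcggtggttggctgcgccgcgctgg
Ackr3, chr1:90203730-90204029, plus strand: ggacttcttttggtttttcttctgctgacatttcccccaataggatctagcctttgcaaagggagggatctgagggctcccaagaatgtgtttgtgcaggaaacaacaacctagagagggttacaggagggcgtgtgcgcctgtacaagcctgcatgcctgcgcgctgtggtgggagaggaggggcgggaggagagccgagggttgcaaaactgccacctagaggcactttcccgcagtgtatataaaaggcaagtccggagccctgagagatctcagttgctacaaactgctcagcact
The letters searched on both strands were TGGGAA (RBPJ), ATGCAAAT (octamer), TGTGGTT (RUNX), GAGGAA (PU.1), CACCTG (E-box), GGGTGTGG (KLF) and TGACTCA (AP-1), with fixed forms of the NF-kB and EBF1 motifs, and no searched motif has its letters in the windows of Cdc42bpb and Ackr3. Over the 59 windows that the regions overlap, TGACTCA stood in 8 (13.6%), against 4.66% of all 21263 windows. TGTGGTT stood in 5 (8.47%) against 4.71% of all windows, CACCTG in 16 (27.1%) against 19.7%, and TGGGAA in 16 (27.1%) against 24.5%. GAGGAA stood in 15 (25.4%) against 27.4%, and GGGTGTGG in 3 (5.08%) against 3.63%. The NF-kB, octamer and EBF1 letters stood in 0 of the 59 windows and in 0.263%, 1.66% and 0.959% of all windows. The 59 windows belong to 52 genes, and some of them overlap, as at Ccdc136, Rap1gap and Epha7. The same letters can therefore count more than once. These are counts of letters and say nothing of binding.

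At the Tspan15 start, the region had 18.2, 18.3 and 18.03 rppm in knockout MZB, with 1.86, 2.88 and 4.07 rppm in knockout FoB. Its wild-type values were 28.9, 27.4 and 23.9 rppm in MZB and 4.38, 4.72 and 3.82 rppm in FoB. All MZB libraries thus stood above all FoB libraries, and the 3 knockout MZB libraries stood below the 3 wild-type ones without passing the test across all regions (log2 difference -0.54, SE 0.20, limma adjusted p = 0.207). In bulk libraries, fewer cells of a type and less accessibility per cell cannot be told apart. The region at the Gpr31b start had means of 20.8 rppm in knockout MZB, 1.25 rppm in knockout FoB, 23.0 rppm in wild-type MZB and 2.19 rppm in wild-type FoB. Reads of the Gpr31 family could be split between near-identical copies, since the treatment of reads with several matches was not given in the sources used here.

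The libraries held 3169966 to 10375328 reads over all regions, and 3 reads correspond to 0.289 to 0.946 rppm. A typical region of the set rested on 25 to 34 reads (medians) in an MZB library and on 5 to 16 in an FoB library, so single low FoB values are imprecise; the floor of 3 reads covers counting error only, since PCR copies of 1 molecule cannot be recognised. The only region assigned to Kdm1a had 18.9 to 29.7 rppm in knockout MZB, 20.5 to 20.6 rppm in knockout FoB, 16.5 to 28.4 rppm in wild-type MZB and 21.2 to 24.9 rppm in wild-type FoB; accessibility of 1 region does not check the deletion. Genes that mark the gates were read as summed levels of their regions. Regions of the 8 MZB marker genes summed to 1644 to 1714 rppm in knockout MZB, 1130 to 1198 rppm in knockout FoB, 1717 to 1793 rppm in wild-type MZB and 1199 to 1236 rppm in wild-type FoB, and 16 of their 140 regions are in the set. The gate gene Cr2, which encodes CD21, was not higher in MZB, with 279 rppm in knockout MZB, 331 rppm in knockout FoB, 296 rppm in wild-type MZB and 348 rppm in wild-type FoB. Regions of the 6 FoB marker genes summed to 706 to 710 rppm in wild-type MZB and to 967 to 1010 rppm in wild-type FoB.

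The values that chose the set are given as a description. The wild-type means over the regions had a median of 8.89 rppm in MZB (5.005 to 74.5) and 1.43 rppm in FoB, and 660 regions had a ratio of 8 or more. Together the regions took 2.79%, 2.76% and 2.72% of the reads in wild-type MZB libraries and 0.399%, 0.493% and 0.442% in wild-type FoB libraries. Just inside the level threshold, regions nearest to Clvs1, Ap1s3 and Eif4b had wild-type MZB means of 5.005, 5.005 and 5.01 rppm; just outside it, regions nearest to Tnfsf15, Smad3 and Utrn had 4.997, 4.997 and 4.998 rppm. Just inside the ratio, regions nearest to Rcan1 and Add3 had 17.5 and 17 rppm in wild-type MZB against 4.36 and 4.25 rppm in wild-type FoB; just outside it, regions nearest to Ppl, Rbm47 and Laptm4a had 6.04, 6.62 and 6.33 rppm against 1.51, 1.66 and 1.58 rppm. The mirror rule, with wild-type FoB at 5 rppm or more and at least 4 times wild-type MZB, found 101 regions, or 1 for every 23.8 of the set. This asymmetry depends on the scaling: the median over all regions was 4.35 to 4.59 rppm in the MZB libraries and 3.05 to 3.29 rppm in the FoB libraries. After quantile normalisation the rule found 1332 regions (1330 of them in the set) and the mirror rule 276, and with TMM factors 1832 (all in the set) and 155.

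In the LSD1-knockout libraries, which the rule did not use, the regions differed strongly between the cell types. They took 2.29%, 2.45% and 2.47% of the reads in knockout MZB libraries and 0.466%, 0.487% and 0.427% in knockout FoB libraries. Their median level was 7.74 rppm in knockout MZB and 1.44 rppm in knockout FoB. By limma on log2(rppm + 0.5), with Benjamini-Hochberg adjustment over all 89782 regions tested and a threshold of 0.05, 2381 of the 2403 (99.1%) were higher in knockout MZB than in knockout FoB, where 23.2% of all tested regions were called higher, and 0 were lower, where 9.47% of all were called lower (0 also at an unadjusted p under 0.05 and by edgeR and DESeq2). The 3 knockout MZB values stood above the 3 knockout FoB values without overlap at 2384 regions, against 28.9% of all. The median log2 difference was 2.10 (lowest 0.23, highest 4.62), against 0.14 over all regions tested. With quantile normalisation these medians were 1.69 and -0.08. All members passed the filter on low values through wild-type MZB, and 2398 passed it in the knockout libraries alone.

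**Figure D2:**
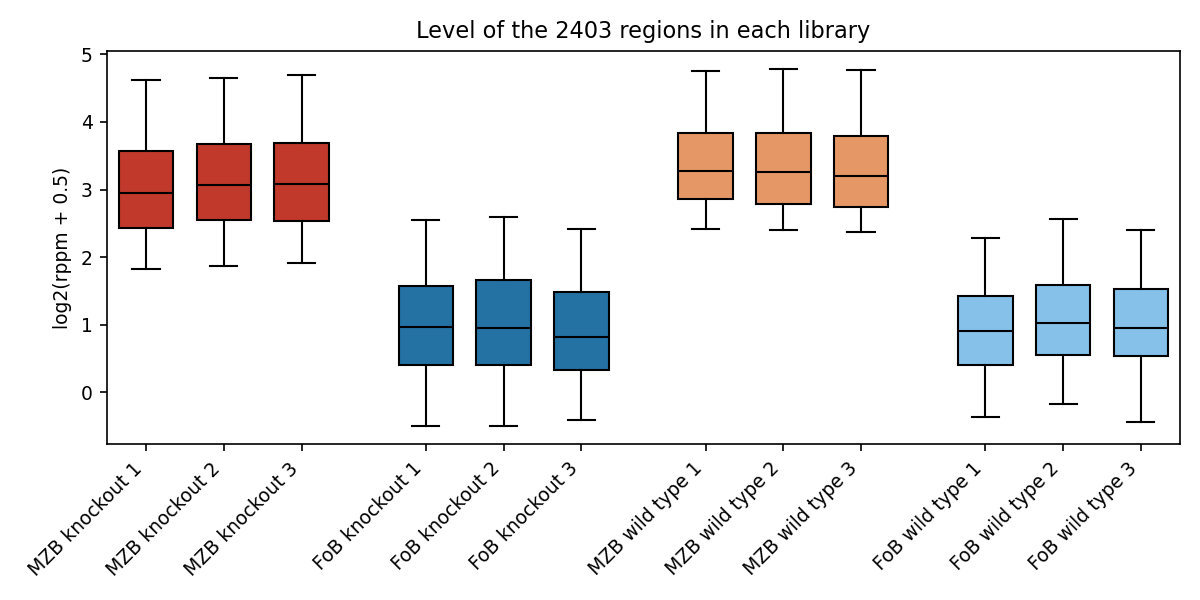
Level of the 2403 regions in each of the 12 libraries, as log2(rppm + 0.5); boxes span the quartiles with the median, whiskers the 5th to 95th percentiles. The knockout MZB boxes stand well above the knockout FoB boxes, as the wild-type ones do by the rule, and slightly below the wild-type MZB boxes.

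The same rule applied to the knockout libraries found 2141 regions, of which 1448 were in the set, which is 60.3% of the set and 67.6% of the 2141. Of the 955 that did not meet it, 316 missed only the level, 453 only the ratio and 186 both. Over all 2403, 2376 regions (98.9%) had a knockout ratio of at least 2, and 0 had more accessibility in knockout FoB than in knockout MZB. The knockout MZB level was at least 5 rppm at 1901 regions (79.1%), under 0.5 of the wild-type level at 103 and over 2 times it at 0. Of the 101 mirror regions, 32 (31.7%) met their rule in the knockout libraries. Because a threshold was applied to the wild-type values and not to the knockout ones, some loss is built into this count.

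Regions with large wild-type ratios were also far apart in the knockouts. A pair of regions within 2 kb of each other in Map1b, which encodes a microtubule-associated protein, had means of 17.9 and 17.9 rppm in knockout MZB, 0.344 and 0.36 rppm in knockout FoB, 30.9 and 31.5 rppm in wild-type MZB, and 0.502 and 0.71 rppm in wild-type FoB. Their log2 differences between knockout MZB and knockout FoB were 4.56 and 4.42 (limma adjusted p = 4.39e-15 and 2.52e-16). The region with the highest wild-type level, in Smco4, had 57.6, 59.3 and 55.6 rppm in knockout MZB, with 5.17, 6.59 and 10.2 rppm in knockout FoB, against 81.8, 69.7 and 72.2 rppm in wild-type MZB and 4.65, 7.13 and 6.68 rppm in wild-type FoB.

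The 22 regions not called higher in knockout MZB had knockout MZB means of 0.823 to 6.63 rppm. The smallest difference was at a region 11756 bp from Lemd1, which is described with the regions that fell in knockout MZB. A region 28871 bp from Pag1, which encodes an adaptor that holds Src-family kinases in check, had 6.76, 6.63 and 6.50 rppm in knockout MZB, with 4.55, 5.56 and 5.85 rppm in knockout FoB, against 11.3, 11.7 and 10.3 rppm in wild-type MZB and 2.19, 2.99 and 2.87 rppm in wild-type FoB. The knockout groups at Pag1 were thus close together, without overlapping (log2 difference 0.30, SE 0.22, limma adjusted p = 0.312). Knockout MZB was lower than wild-type MZB without passing the test (-0.70, limma adjusted p = 0.122). The Pag1 region rose in knockout FoB against wild-type FoB (0.87, limma adjusted p = 0.0499). It was named for its small knockout difference, and the rule chose high wild-type MZB and low wild-type FoB values. Nothing is therefore read from this pattern. Regions near Gk5, Pcdh9, Cyp1b1 and Dse had differences of 0.31, 0.40, 0.44 and 0.44 and limma adjusted p of 0.572, 0.525, 0.335 and 0.293. All 5, with the Lemd1 region, turned negative after quantile normalisation.

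The regions were spread over 1511 nearest coding genes: 1034 genes had 1, 290 had 2 and 53 had 5 or more. Chained at gaps of up to 25000 bp, 1443 regions (60.0%) stood alone and 960 fell into 389 clusters. The share of regions in the set ran from 1.37% on chromosome 11 to 3.96% on chromosome 18. The gene named is the nearest coding gene only, and which gene a region acts on was not measured.

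Some receptors that place B cells in the spleen had several such regions. S1pr1, a sphingosine-1-phosphate receptor that holds MZB cells in the marginal zone in mice, had 9 of its 55 assigned regions in the set, 75289 to 178104 bp away on chromosome 3, and 7 of these stood within 39861 bp. The strongest, chr3:115568252-115568706, had 19.4, 26.2 and 25.1 rppm in knockout MZB, with 2.07, 1.24 and 1.27 rppm in knockout FoB, against 25.9, 21.3 and 24.3 rppm in wild-type MZB and 3.01, 2.51 and 2.39 rppm in wild-type FoB. Its knockout MZB and wild-type MZB values overlap, and all MZB values stand far above all FoB values (knockout MZB minus knockout FoB 3.58, SE 0.21, limma adjusted p = 1.00e-15). All 9 were called higher in knockout MZB than in knockout FoB, and 0 were called between knockout and wild-type MZB (lowest limma adjusted p = 0.26). Of the whole set, 99.1% were called higher in the first comparison and 1.04% lower in knockout MZB in the second. These counts at S1pr1 are near those shares. S1pr3, a second receptor of this lipid that is high on MZB cells, had 4 of 19 regions in the set, and the one in its gene body averaged 6.60 ± 1.47 rppm in knockout MZB, 0.736 ± 0.104 rppm in knockout FoB, 12.2 ± 2.24 rppm in wild-type MZB and 0.663 ± 0.263 rppm in wild-type FoB (SD, n = 3 each). The difference between knockout and wild-type MZB at this S1pr3 region did not pass the test (limma adjusted p = 0.187).

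Ackr3, the CXCL12 receptor whose promoter is printed above, had 6 of 14 regions in the set, and all 6 also met the rule in the knockouts. The strongest lay 22164 bp from the gene and averaged 54.8 ± 3.05 rppm in knockout MZB, 11.1 ± 0.799 rppm in knockout FoB, 52.9 ± 2.83 rppm in wild-type MZB and 9.80 ± 2.17 rppm in wild-type FoB (SD, n = 3 each). Cxcr4, the main signalling receptor for CXCL12, had 2 regions more than 280 kb away; the stronger had 17.96, 21.4 and 21.9 rppm in knockout MZB, with 0.207, 1.03 and 0.508 rppm in knockout FoB, against 20.2, 27.9 and 21.8 rppm in wild-type MZB and 0, 0.867 and 0.716 rppm in wild-type FoB. Itgb1, the beta-1 integrin subunit, had 7 of 21 regions, all outside the gene, with means of 5.13 to 15.5 rppm in knockout MZB, 0.752 to 3.87 rppm in knockout FoB, 6.08 to 16.3 rppm in wild-type MZB and 0.636 to 2.77 rppm in wild-type FoB. Over the list of migration and adhesion genes, 26 of 475 regions (5.47%, against 2.55% of all regions) were in the set. They were nearest to 7 of the 28 listed genes that have a region, with 9 at S1pr1, 7 at Itgb1 and 4 at S1pr3. S1pr1, S1pr3 and Plxnd1 also stand on the marginal zone list below. As the gene lists were written with earlier results of these data known, the share is no independent evidence. All 26 were higher in knockout MZB than in knockout FoB, as were 99.1% of the set. Between knockout and wild-type MZB 0 of the 26 were called, where 1.04% of the set fell. Among all tested regions of the list, 6 rose and 5 fell in knockout MZB, where 0.502% and 0.275% of all tested regions did.

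**Figure D3:**
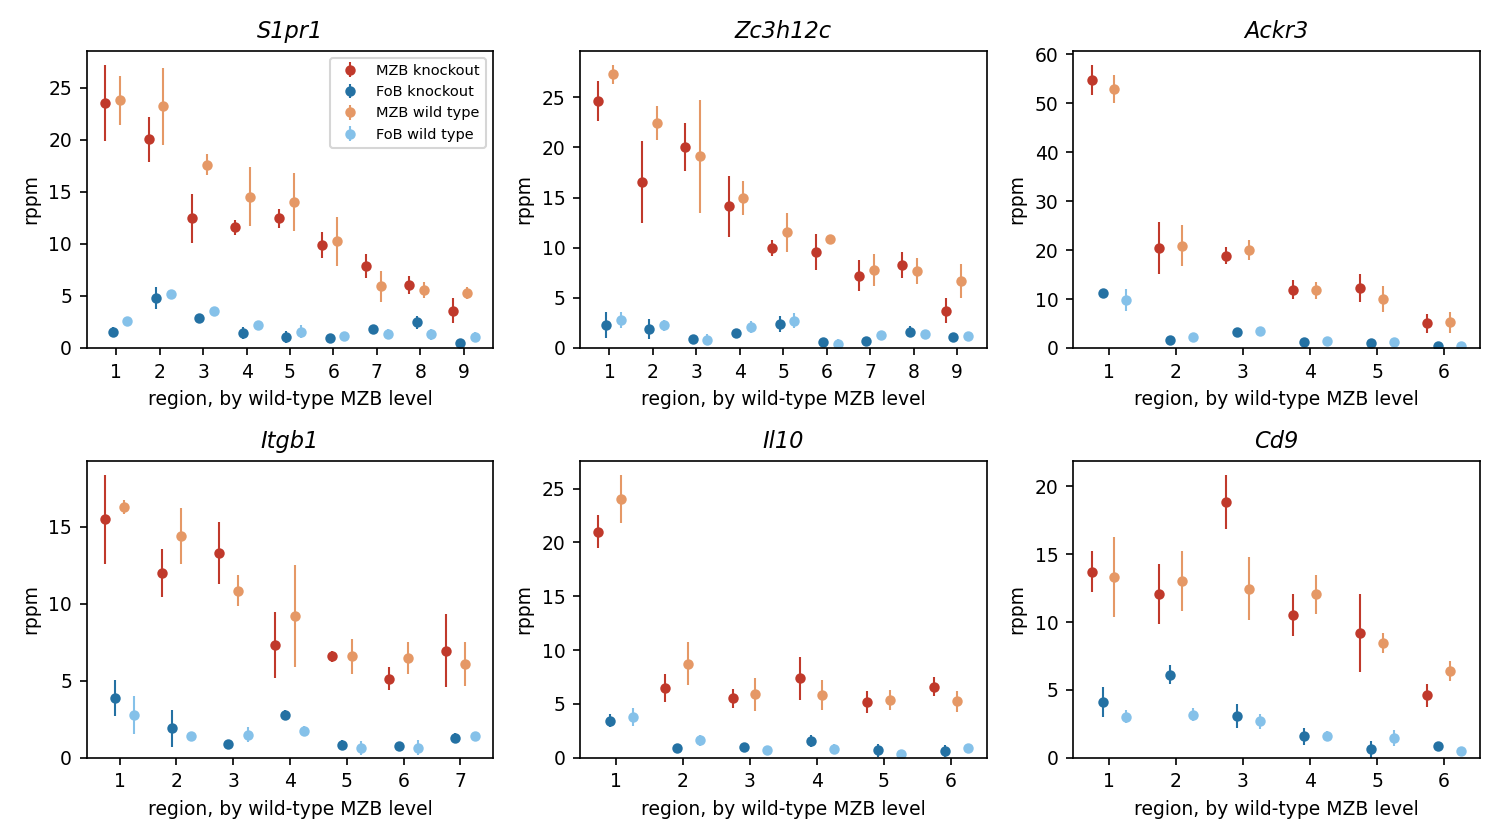
Levels in rppm (mean and SD, 3 libraries per group) of every region of the set nearest to S1pr1 (9), Zc3h12c (9), Ackr3 (6), Itgb1 (7), Il10 (6) and Cd9 (6), ordered by wild-type MZB level. At each region both MZB groups stand above both FoB groups, and the MZB groups lie close to each other at most.

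A list of 25 genes of the marginal zone programme had 49 of its 488 regions in the set (10.0%, against 2.55% of all regions), nearest to 15 genes. The list was written with earlier results of these data known, so the share is no independent evidence of it. Zc3h12c, an RNA-binding nuclease that limits inflammatory transcripts, had 9; Cd9, a tetraspanin found on MZB cells, had 6; and Ahr, the ligand-activated aryl hydrocarbon receptor, had 6. The strongest Zc3h12c region had 22.9, 26.8 and 24.2 rppm in knockout MZB, with 2.90, 3.09 and 0.763 rppm in knockout FoB, against 26.5, 27.1 and 28.3 rppm in wild-type MZB and 1.92, 3.57 and 2.86 rppm in wild-type FoB. At Cd9, the highest mean in knockout MZB was 18.9 ± 1.99 rppm, against 12.4 ± 2.33 rppm in wild-type MZB (SD, n = 3 each). This log2 difference of 0.59 did not pass the test (limma adjusted p = 0.222). Another Cd9 region had 6.13 ± 0.674 rppm in knockout FoB, against 3.17 ± 0.466 rppm in wild-type FoB (SD, n = 3 each). That rise was called by limma (log2 difference 0.86, limma adjusted p = 0.0356), but not by DESeq2 or with only the FoB groups in the fit. The rule chose low wild-type FoB values, so the rise is not independent of the choice. The 2 regions in Cd36, a scavenger receptor, lay in its gene body and averaged 9.72 and 21.7 rppm in knockout MZB against 11.1 and 23.4 rppm in wild-type MZB. All 49 were higher in knockout MZB than in knockout FoB (99.1% of the set), with a median log2 difference of 2.18 (2.10 over the set). Between knockout and wild-type MZB 0 were called in either direction (1.04% of the set fell), with a median of -0.15 (-0.22 over the set). Of the 8 gate and identity genes, Cr2, Cd1d1 and Notch2 had 0 regions in the set.

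On the Notch pathway list, 12 of 403 regions (2.98%) were in the set, near the 2.55% of all regions. Dtx1, which encodes an E3 ligase and is induced by Notch2 signals in MZB cells, had 2 in its gene body; the stronger had 27.5, 32.8 and 32.5 rppm in knockout MZB, with 4.14, 6.18 and 5.34 rppm in knockout FoB, against 32.7, 37.5 and 29.5 rppm in wild-type MZB and 5.75, 3.66 and 3.82 rppm in wild-type FoB. The knockout and wild-type MZB values at Dtx1 overlap (limma adjusted p = 0.86). Maml2, a coactivator of Notch, had 2, Rbpj, the DNA-binding partner of Notch, had 2, Myc had 4 at 35415 bp or more from the gene, and Fbxw7 and Jag1 had 1 each. All 12 were higher in knockout MZB than in knockout FoB, as were 99.1% of the set. Between knockout and wild-type MZB 0 of the 12 were called, where 1.04% of the set fell. The list of noncanonical NF-kB genes had 0 of 63 regions in the set, B cell receptor signalling 4 of 375 (1.07%), and the follicular programme 3 of 401 (0.748%). The LSD1 complex list had 5 of 197 (2.54%, near the share of all regions), at Gse1, Prdm1 and Rcor3. All 5 were higher in knockout MZB than in knockout FoB and 0 were called between knockout and wild-type MZB. Both counts are near the shares of the whole set. Of lists for other cells, T cell genes had 3 of 83 regions in the set (3.61%), myeloid genes 3 of 102 (2.94%) and dendritic cell genes 3 of 65 (4.6%). NK cell genes had 2 of 39 (5.13%), B-1 genes 2 of 139 (1.44%), and erythroid and megakaryocyte genes 0 of 21.

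Of the regions at B lineage transcription factor genes, 17 of 1179 (1.44%, against 2.55% of all regions) were in the set, at 6 of the 30 genes listed. All 17 were higher in knockout MZB than in knockout FoB, as were 99.1% of the set. Between knockout and wild-type MZB 0 of the 17 were called, where 1.04% of the set fell. Zeb2, a repressor of the zinc finger and homeobox class, had 7 of 97 regions, but 6 of these lay 1292366 to 1429864 bp from the gene with no other coding gene nearer. The strongest had 32.9, 27.1 and 34.6 rppm in knockout MZB, with 5.79, 7.21 and 5.34 rppm in knockout FoB, against 31.9, 35.1 and 28.9 rppm in wild-type MZB and 4.93, 8 and 7.16 rppm in wild-type FoB, so the genotypes overlapped at this region. Over the 7 Zeb2 regions the log2 differences of knockout minus wild-type MZB ran from -0.45 to -0.02, without a call. Id2, which blocks E proteins, had 5 regions, and Bach2, a repressor of the plasma cell programme, had 2 in its gene body. Ikzf1, Runx1 and Runx3 had 1 each. On a separate list of AP-1 and activation factors, Nr4a3, an orphan nuclear receptor, had 3 regions. The strongest Nr4a3 region averaged 28.8 rppm in knockout MZB and 2.65 rppm in knockout FoB, against 36.8 rppm in wild-type MZB and 1.51 rppm in wild-type FoB. On the plasma cell list 8 of 230 regions (3.48%, against 2.55% of all regions) were in the set, at Ell2, Prdm1, Tent5c and Zbtb20. All 8 were higher in knockout MZB than in knockout FoB, as were 99.1% of the set.

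Outside these lists, Il10, which encodes an anti-inflammatory cytokine, had 6 of 11 regions in the set, and with 1 region at Mapkapk2 they formed a cluster of 59640 bp on chromosome 1. All 6 also met the rule in the knockouts, with means of 5.16 to 21.0 rppm in knockout MZB, 0.636 to 3.44 rppm in knockout FoB, 5.25 to 24.1 rppm in wild-type MZB and 0.384 to 3.795 rppm in wild-type FoB. Lama3, a laminin chain gene, had 11 of 15 regions in the set, all in its gene body, and the largest cluster held 9 of the 9 regions within 58412 bp. The strongest had 32.2, 36.3 and 40.5 rppm in knockout MZB, with 6.62, 6.39 and 3.05 rppm in knockout FoB, against 35.1, 32.7 and 34.5 rppm in wild-type MZB and 3.29, 4.14 and 3.58 rppm in wild-type FoB. Genes with as many or nearly as many regions were Atxn1 (12), Tenm4 (11), Rybp (9), Magi2 (8) and Hs6st1 (8).

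Between genotypes, the regions were slightly lower in knockout MZB than in wild-type MZB. The median log2 difference was -0.22, against -0.02 over all regions tested, and 1803 regions (75.03%) were below 0, against 53.2% of all. Since wild-type MZB values chose the regions, these values are not independent of the choice. The rule was therefore also applied with 1 replicate number left out of both wild-type groups, and knockout MZB was set against the left-out library. With replicates 1, 2 and 3 left out, the medians over 2300, 2681 and 2538 regions were -0.20, -0.16 and -0.15, and the left-out library itself stood 0.03, 0.05 and 0.09 below the 2 that chose the regions. Regions with a ratio of 8 or more had medians of -0.34, -0.24 and -0.24, against -0.16, -0.14 and -0.12 for those with a ratio of 4 to 8.

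Single regions rarely passed the test. Of the 2403, 25 (1.04%) fell in knockout MZB by limma, where 0.275% of all tested regions were called lower, and 0 rose, where 0.502% of all were called higher (28 were higher at an unadjusted p under 0.05; 3 were called by edgeR with TMM and 0 by DESeq2). The 3 knockout values stood below the 3 wild-type values without overlap at 665 regions (27.7%), against 9.55% of all, and above them at 103 (4.29%), against 8.13% of all. The rule used wild-type MZB, so nothing is read from these shares. The count of 25 became 15, 11 and 11 without MZB knockout libraries 1, 2 and 3, 8, 8 and 7 without MZB wild-type libraries 1, 2 and 3, and 45 without FoB wild-type library 1. It was 102 by edgeR with TMM and 12 by DESeq2. Of the 25, edgeR called all and DESeq2 called 6. DESeq2 gave no adjusted p at 161 of the 2403, among them the Adam18 region and the Lemd1 region 11756 bp from the gene, so its counts partly reflect missing values. Of the 101 mirror regions 18 rose and 0 fell in knockout MZB, with a median of 0.36. The mirror rule chose low wild-type MZB values, which favours a rise over them, so nothing is read from these values either.

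**Figure D4:**
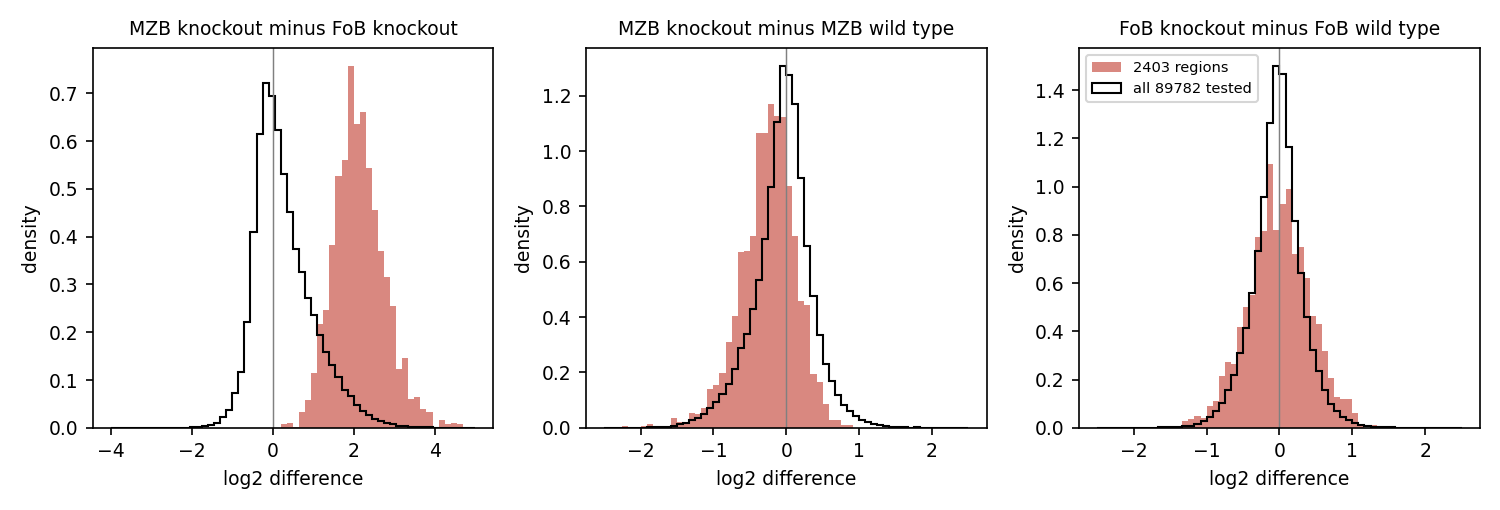
Density of log2 differences for the 2403 regions (filled) and all 89782 tested regions (line), in knockout MZB minus knockout FoB (left), knockout MZB minus wild-type MZB (centre) and knockout FoB minus wild-type FoB (right). The medians of the 2403 are 2.10, -0.22 and -0.02, and those of all tested regions 0.14, -0.02 and -0.02.

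Levels of other markers also differed between the MZB genotypes. Regions of the immature B cell genes Cd93, Rag1 and Vpreb3 summed to 182 to 211 rppm in knockout MZB against 147 to 165 rppm in wild-type MZB, with 2 of 3 genes higher. Those of the B-1 genes Spn, Cd5 and Bhlhe41 summed to 311 to 348 rppm against 272 to 289 rppm, with 3 of 3 higher. The B-1 sums also differed in FoB, at 282 to 294 rppm in knockout and 242 to 250 rppm in wild type. The immature sums overlapped in FoB, at 248 to 274 and 237 to 252 rppm. Regions of 6 myeloid genes summed to 384 to 435 rppm in knockout MZB against 346 to 373 rppm in wild-type MZB, with 5 of 6 higher. Those of 3 NK genes summed to 319 to 350 rppm against 301 to 309 rppm, with 2 of 3 higher. Regions of 6 genes of all B cells summed to 1051 to 1180 rppm in knockout MZB against 1035 to 1102 rppm in wild-type MZB, with 6 of 6 higher by their means, and those of 3 plasma cell genes to 695 to 725 rppm against 658 to 694 rppm, with 3 of 3 higher. Of the 8 MZB marker genes, 3 were higher in knockout MZB. Regions of the 6 FoB genes overlapped between the genotypes, with 690 to 733 rppm in knockout MZB and 706 to 710 rppm in wild-type MZB. Among all 143 regions of the wider immature B cell list, of which 0 are in the set, 8 rose in knockout MZB and 0 fell, where 0.502% of all tested regions were called higher and 0.275% lower. Of the T cell genes, Cd3g, Cd4 and Cd8a have no assigned region, and the other 3 summed to 30.6 to 39.4 rppm in knockout MZB and 33.3 to 35.6 rppm in wild-type MZB. The share of all regions under 1 rppm was 12.8% to 16.5% in knockout MZB and 9.66% to 13.0% in wild-type MZB. The part of these levels in the lower values of the set was not tested.

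The 4 smallest adjusted p belonged to regions on chromosome 1. The 2 regions at Lemd1 and the 1 in Lgr6 lay between 130 and 140 Mb, so they are neighbours and may not be independent. A region in Lgr6, which encodes a receptor for R-spondins, had 3.03, 5.68 and 2.66 rppm in knockout MZB, against 14.3, 13.0 and 15.5 rppm in wild-type MZB (log2 difference -1.85, SE 0.28, limma adjusted p = 0.000216). At Lemd1, which encodes a protein with a LEM domain, the region 7890 bp away had 3.27, 6.31 and 4.43 rppm in knockout MZB, against 18.1, 19.7 and 15.2 rppm in wild-type MZB (-1.85, SE 0.30, limma adjusted p = 0.000487). The second Lemd1 region, 11756 bp away, had 0.933, 0.946 and 0.591 rppm in knockout MZB, with 1.03, 0.412 and 0.508 rppm in knockout FoB, against 5.94, 6.91 and 4.35 rppm in wild-type MZB and 1.095, 0.386 and 0.716 rppm in wild-type FoB. There the knockout MZB values came down to the FoB range (-2.23, SE 0.38, limma adjusted p = 0.000858), and the knockout cell types overlapped. A region in Marco, a scavenger receptor gene best known from marginal zone macrophages, had 9.33, 12.9 and 13.6 rppm in knockout MZB, against 28.1, 30.3 and 23.3 rppm in wild-type MZB (-1.17, SE 0.21, limma adjusted p = 0.00198). These 4 regions kept their call without any 1 library. In FoB their knockout and wild-type values did not pass the test, with limma adjusted p of 0.063 for Lgr6, 0.863 and 0.974 for Lemd1, and 0.571 for Marco. The Lgr6 region was lower in FoB too, with 0.828, 0.824 and 0.763 rppm in knockout FoB. Its wild-type FoB values were 2.19, 2.12 and 2.63 rppm (log2 difference -1.10, SE 0.28). A genotype difference particular to MZB was therefore not shown at these regions.

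**Figure D5:**
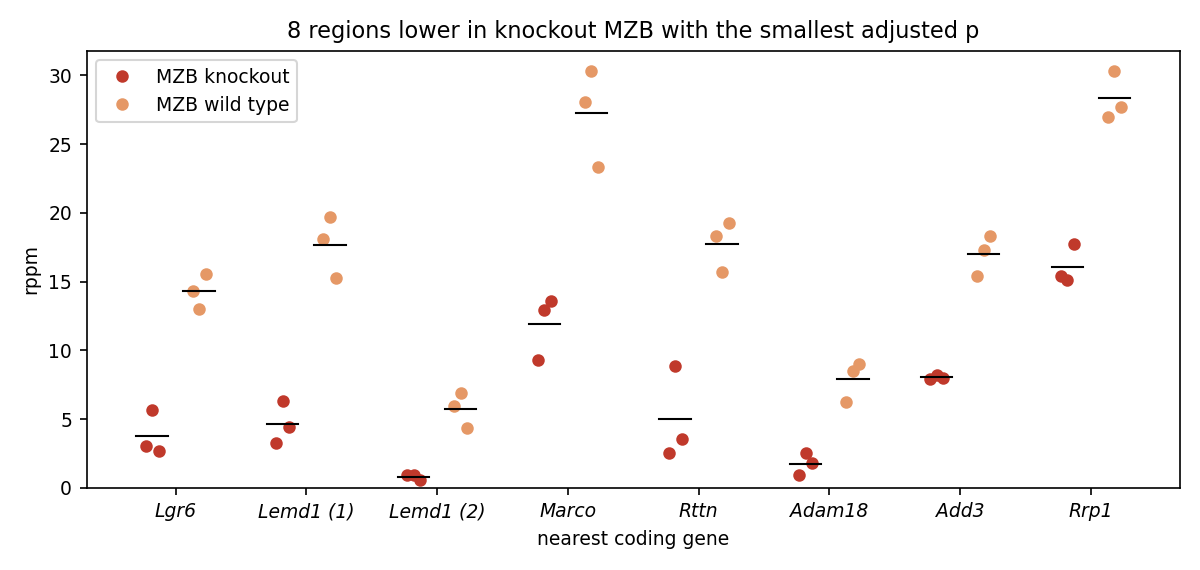
Levels in rppm of the 8 regions of the set with the smallest adjusted p among those lower in knockout MZB, with 3 libraries per group as points and their mean as a line. At each region all 3 knockout MZB values stand below all 3 wild-type MZB values.

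Next in the order of adjusted p were regions in or near Rttn, Adam18, Add3 and Rrp1. Near Rttn, a gene for a centriole protein, the values were 2.57, 8.83 and 3.55 rppm in knockout MZB, against 18.4, 15.7 and 19.3 rppm in wild-type MZB (-1.90, SE 0.35, limma adjusted p = 0.00225); DESeq2 gave an adjusted p of 0.0898. In Add3, which encodes a cytoskeletal adducin, they were 7.93, 8.20 and 7.98 rppm in knockout MZB, against 15.4, 17.3 and 18.4 rppm in wild-type MZB (-1.03, SE 0.21, limma adjusted p = 0.006). The calls at Adam18 (-1.96) and Add3 were lost without MZB wild-type library 3, and that at Rrp1 (-0.80) without any of 5 MZB libraries. Of the 25 regions, 17 lay in a gene body, and their log2 differences ran from -2.23 to -0.80. Those near Rttn and Zfp407 and in Zfp516 lay between 80 and 90 Mb of chromosome 18, so they may not be independent. Near Zfp407, as near Rttn, knockout MZB library 2 stood apart, with 3.03, 11.04 and 4.14 rppm in knockout MZB. The wild-type MZB values near Zfp407 were 15.38, 15.15 and 18.35 rppm. In Zfp516 the knockout MZB values were 5.36, 6.63 and 5.02 rppm.

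Near Gm5861 and Gm6460, on chromosome 5 from 10948165 to 11688280, 22 of 65 assigned regions (33.8%) were in the set. All 22 were below 0 in knockout MZB against wild-type MZB, with a median of -0.76 (-1.46 to -0.52). Below 0 were 75.03% of the set and 53.2% of all tested regions. Of the 22, 2 passed the test, where 1.04% of the set and 0.275% of all tested regions were called lower. The strongest of the 14 at Gm5861 had 6.997, 8.83 and 6.80 rppm in knockout MZB, with 1.45, 0.412 and 1.27 rppm in knockout FoB, against 11.9, 13.8 and 16.2 rppm in wild-type MZB and 1.37, 0.386 and 0.955 rppm in wild-type FoB. At 18 of the 22 the knockout MZB values stood below the wild-type MZB values without overlap. The share was 27.7% over the set and 9.55% over all tested regions. The rule used wild-type MZB, so these counts are not independent of the choice. All 22 were higher in knockout MZB than in knockout FoB, as were 99.1% of the set. These regions are neighbours and not independent, reads could be split between near-identical copies there, and the stretch was singled out after its values were seen.

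In FoB, where the regions were weakly open, the median log2 difference of knockout minus wild type was -0.02, as was that of all regions tested to 2 decimals. The rule also used wild-type FoB, so these values and the counts that follow are not independent of the choice, and nothing is read from their shares. With replicates 1, 2 and 3 left out of the rule, knockout FoB minus the left-out wild-type FoB library had medians of 0.0085, -0.16 and -0.088. By limma 30 regions rose in knockout FoB (1.25%, where 0.32% of all tested regions were called higher) and 18 fell (0.749%, where 0.219% of all were called lower). Knockout and wild-type FoB values did not overlap at 192 regions with knockout higher (7.99%, against 7.18% of all) and at 185 with knockout lower (7.70%, against 7.51% of all). The region 15181 bp from Cnot4, a gene for a ubiquitin ligase of the CCR4-NOT complex, had 14.1, 15.4 and 9.91 rppm in knockout FoB, against 6.30, 7.13 and 6.21 rppm in wild-type FoB (0.93, SE 0.15, limma adjusted p = 0.000272). A region in Apbb2, which encodes an adaptor that binds the amyloid precursor protein, had 1.86, 1.85 and 1.27 rppm in knockout FoB, against 4.93, 4.14 and 5.25 rppm in wild-type FoB (-1.29, SE 0.20, limma adjusted p = 0.000184). Near Cd180, which encodes a Toll-like receptor homologue of B cells, the values were 0.207, 0.412 and 0.254 rppm in knockout FoB, against 1.92, 1.35 and 2.15 rppm in wild-type FoB (-1.53, SE 0.30, limma adjusted p = 0.00493), or about 1 to 2 reads per knockout library.

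Several FoB calls rest on single libraries or on the spread shared by all groups. Without FoB wild-type library 1, 11 regions rose, without library 3, 15, and without FoB knockout libraries 1 and 2, 13 and 17; without FoB knockout library 3, 7 fell, and without FoB wild-type library 2, 10. With only the FoB groups in the fit, 1 region rose and 0 fell, and DESeq2 called 3 and 0. The Cdc42bpb region at the start site printed above had 1.24, 0.824 and 0.508 rppm in knockout FoB, against 1.92, 2.41 and 2.39 rppm in wild-type FoB (-1.04, SE 0.24, limma adjusted p = 0.0269), and 11.4, 18.3 and 17.1 rppm in knockout MZB against 24.3, 21.5 and 21.1 rppm in wild-type MZB, without a call. The Adamts7 region was the only one of the set called in both cell types, lower in knockout MZB (-0.87) and in knockout FoB (-0.96). A test of whether the genotype difference itself differed between MZB and FoB called 0 of the 2403 regions and 1 of all 89782 by limma.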

How the data were processed

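ATAC-seq libraries of 12 samples were analysed, with groups and replicate numbers from titles and labels. The authors deposited one table of reads per 1000000 over 94161 regions (RPM, here rppm), each column summing to 1000000. Bowtie 1.1.1, MACS2 and mm10 are named in the submitters' processing notes; read filters, peak merging, the Tn5 offset and the coordinate base were not given in the sources used here, and coordinates are printed as deposited. All values were whole multiples of 1 read within 0.01 (100%), so whole reads were recovered. No 2 libraries of a group were close enough to be 1 library deposited again (chi-square per degree of freedom 1.096 to 1.847).

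Regions at 1 rppm or more in at least 3 libraries were tested (89782 kept, 4379 removed) with limma 3.58.1 in R 4.3.3 (trended eBayes, 4 groups, two-sided) on log2(rppm + 0.5), a scale that understates the change of low regions. The reads were also fitted with edgeR 4.0.16 and DESeq2 1.42.0. Simulated data with equal spread in all groups were also fitted, and no result here rests on them. Genes came from 21900 coding genes and start sites from promoter windows, both RefSeq GRCm38.p6. Named regions are the highest and those with the largest ratio, the genes with most regions, up to 3 per gene list, up to 8 called per comparison and direction, the smallest knockout differences, the threshold neighbours and the highest at promoters; other genes named were chosen after their values were seen. The regions, gene lists and tests were chosen with earlier results of these data known. A few of the regions so named are not reported here.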

Additional observations from a re-analysis of the deposited data

How the results depend on the processing

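The 2381 regions called higher in knockout MZB than in knockout FoB stayed within 1.5 times in all settings run, and their median log2 difference of 2.10 was 2.41 with a pseudocount of 0.1, 1.48 with 2, 1.69 with quantile normalisation, 2.23 and 2.40 by edgeR with and without TMM, 2.275 by DESeq2, 2.045 to 2.136 without 1 library, and 2.02 with rule and fit both without FoB wild-type library 2 (chosen after seeing the data, as were the mirror rule settings and the rule with TMM factors). Regions lower in knockout than in wild-type MZB (25) numbered 8 and 110 with pseudocounts of 0.1 and 2, 60 with quantile normalisation, 155 with the 2 groups alone, 102 and 104 by edgeR with and without TMM, 12 by DESeq2, and 7 to 45 without 1 library; those higher (0) numbered 1 with a pseudocount of 2, 8 with the 2 groups alone and 3 by edgeR either way. In FoB, those higher (30) and lower (18) numbered 18 and 3 with a pseudocount of 2, 1 and 0 with the 2 groups alone, 8 and 8 by edgeR either way, 3 and 0 by DESeq2, 11 to 41 and 7 to 21 without 1 library, and 55 and 8 with rule and fit without FoB wild-type library 2, where the median was 0.087. The rule found 4411 and 1006 regions at levels of 2.5 and 10 rppm, 3842 and 1175 at ratios of 3 and 6, 1332 after quantile normalisation and 2300 to 2681 without 1 replicate number; the mirror rule found 174, 46, 237, 28, 276 and 105 to 140, and 155 with TMM. Within 3000 bp of a start site lay 6.01%. After quantile normalisation the uncalled differences at Lemd1 (-0.20), Pag1 (-0.067), Gk5 (-0.073), Pcdh9 (-0.034), Cyp1b1 (-0.00919) and Dse (-0.014) turned negative, and that at Gk5 ran from -0.036 to 0.64 without 1 library. The cause was not tested. Deviations from the group means correlated at -0.093 to 0.134 between same-numbered libraries (18 pairs) and at -0.209 to 0.195 between differently numbered ones (36 pairs). With 3 libraries per group and counting noise, these values cannot show whether same-numbered libraries came from the same animal. With the replicate block 2379 regions were higher in knockout MZB than in knockout FoB. In that fit 25 were lower in knockout than in wild-type MZB, and 31 and 20 were higher and lower in knockout FoB. Depth limits single values: the median region of the set had 25 to 34 reads in the MZB libraries and 5 to 16 in the FoB libraries.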
